A study of Mus musculus with 7 samples.

Results

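The 10 genes described here, Prrx1, Prrx2, Twist1, Barx1, Msx1, Msx2, Sox9, Sox10, Tfap2a and Foxd3, encode transcription factors of the head mesenchyme and of the neural crest. They were chosen by name, with earlier results of these data known. The probe sets annotated to 1 of these symbols alone numbered 19 of the 20380 with a single symbol, or 10 of 12393 genes. RNA was taken from whole C57BL/6 mouse embryos on embryonic day 9, freed of yolk sac and amnion, and read as brightness on short-oligonucleotide arrays of the Affymetrix 430A type. Knockout embryos carried no intact copy of Adnp (ADNP -/-), which encodes a DNA-binding protein with zinc fingers and a homeodomain, and filled 2 arrays. Heterozygous embryos (ADNP +/-), with 1 intact copy, filled 3 arrays, and wild-type embryos (ADNP +/+) filled 2. Genotypes were read by PCR of yolk sac DNA. Each array held a pool of 2 littermates of 1 genotype, labelled as mixed in sex, so that 14 embryos were measured in all and the replicate is the pool. The study set these genotypes side by side to find genes that act downstream of ADNP. The labels name no cell type to which the loss is restricted, and the design text places visible defects of the knockout at this stage, before the embryos degenerate. The part of the gene that was removed is not given in the labels.

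Neural crest cells arise at the border of the neural plate, leave the closing neural tube and fill the face and the pharyngeal arches, where they form most of the head skeleton, as well as peripheral neurons, glia and pigment cells of the trunk. Tfap2a, Msx1 and Msx2 act early, at the border. Foxd3, Sox9 and Sox10 mark crest cells as they form and leave, and Sox10 is then kept in glial and pigment precursors while Sox9 is kept in cartilage precursors. Twist1, Prrx1, Prrx2 and Barx1 act later, in the mesenchyme that crest and head mesoderm give rise to. None of the 10 is confined to the crest: Twist1, Prrx1 and Prrx2 are also used in limb and body wall mesenchyme, Sox9 in sclerotome, Tfap2a in surface ectoderm and the Msx genes in the limb and dorsal neural tube.

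Promoter sequences were available for 8 of the 10 genes in RefSeq (GRCm38.p6), as windows from 250 bases before to 50 bases after the annotated start. Those of the 4 genes that fell in the knockout are printed because their levels moved the same way, with that of Msx2, whose knockout signals lay on the other side of the control genotypes. Capitals mark matches, on either strand, to motifs of the families that these genes belong to (TAATTA for homeodomains, CANNTG for E-boxes, AACAAT for Sox factors, GCCNNNGGC for AP-2, GTAAACA for forkhead factors) and to TATAAA. No 2 of these matches overlapped in the printed windows. Windows are written 5′ to 3′ on the strand of the gene.
Prrx1, chr1:163313601-163313900, minus strand: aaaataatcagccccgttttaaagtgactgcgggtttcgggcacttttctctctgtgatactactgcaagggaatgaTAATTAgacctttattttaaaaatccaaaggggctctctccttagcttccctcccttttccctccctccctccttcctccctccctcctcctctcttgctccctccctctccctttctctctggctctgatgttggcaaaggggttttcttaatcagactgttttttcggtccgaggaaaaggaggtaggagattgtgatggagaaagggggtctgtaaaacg
Prrx2, chr2:30845117-30845416, plus strand: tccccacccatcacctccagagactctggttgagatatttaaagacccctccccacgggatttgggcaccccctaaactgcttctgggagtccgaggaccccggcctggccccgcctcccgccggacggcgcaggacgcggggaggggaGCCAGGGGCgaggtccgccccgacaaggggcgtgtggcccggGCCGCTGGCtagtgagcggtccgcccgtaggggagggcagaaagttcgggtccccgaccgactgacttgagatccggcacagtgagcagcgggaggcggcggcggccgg
Twist1, chr12:33957421-33957720, plus strand: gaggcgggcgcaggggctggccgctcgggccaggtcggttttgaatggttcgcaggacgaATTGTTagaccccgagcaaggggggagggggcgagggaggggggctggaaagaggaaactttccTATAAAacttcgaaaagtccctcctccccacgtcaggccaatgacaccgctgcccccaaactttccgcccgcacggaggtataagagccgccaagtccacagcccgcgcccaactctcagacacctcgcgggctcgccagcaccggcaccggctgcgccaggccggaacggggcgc
Barx1, chr13:48662786-48663085, plus strand: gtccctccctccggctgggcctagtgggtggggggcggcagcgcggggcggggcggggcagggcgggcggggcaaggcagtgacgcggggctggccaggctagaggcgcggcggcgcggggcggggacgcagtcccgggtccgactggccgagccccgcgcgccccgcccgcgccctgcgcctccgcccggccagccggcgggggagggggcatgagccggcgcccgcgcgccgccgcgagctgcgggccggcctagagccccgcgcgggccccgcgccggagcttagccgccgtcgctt
Msx2, chr13:53472731-53473030, minus strand: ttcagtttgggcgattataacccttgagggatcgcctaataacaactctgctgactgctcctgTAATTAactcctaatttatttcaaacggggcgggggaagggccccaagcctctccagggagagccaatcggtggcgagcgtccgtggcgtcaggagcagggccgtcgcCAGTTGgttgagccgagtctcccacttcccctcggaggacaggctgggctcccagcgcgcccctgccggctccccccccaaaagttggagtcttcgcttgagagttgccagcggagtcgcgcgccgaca

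The 4 windows of Prrx1, Prrx2, Twist1 and Barx1 shared none of these motifs. Prrx1 held 1 TAATTA, which was in 3 of the 8 windows of these genes (Prrx1, Tfap2a and Msx2) and in 5.30% of all 32817 promoter windows, and Prrx2 held 2 AP-2 matches, a motif found in 16.6% of windows. Twist1 held 1 TATAAA (13.6% of windows) and 1 match to AACAAT (10.7%), and Barx1 held no match. An E-box was found in 3 of the 8 windows of these genes, those of Msx1, Msx2 and Foxd3, against 72.3% of all windows. GTAAACA was in 0 of the 8 windows and in 3.65% of all windows. Base composition differed widely among the fallen genes, with a GC content of 47.7% for Prrx1, 70.3% for Prrx2, 66.0% for Twist1 and 84.7% for Barx1, against a median of 52.7% over all windows (quartiles 45.7% and 61.7%). The ratio of observed to expected CpG dinucleotides was 0.36 for Prrx1 and 0.76 to 0.94 for the other 3, against a median of 0.38. These matches describe letters in the windows and do not show binding.

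The values are MAS5 signals, 1 per probe set and array on a linear scale. Medians were 55.5 to 57.4 on the 7 arrays, which correlated with Pearson's r of 0.925 to 0.982 across genes, and genes are not independent replicates. The only probe set for Adnp is shared with its neighbour Dpm1 and read 1880.2 and 1681.5 in the knockout, 1114.7, 985.9 and 1195.8 in heterozygotes, and 897.2 and 1025.6 in wild type, so the loss of Adnp could not be checked and genotypes rest on the labels. Markers of heart, neural tube, somites and primitive red cells were measured on every array, as a whole embryo should show. Visceral endoderm, the layer that covers the early embryo and lines the yolk sac, stood apart in the knockout. The summed signal of its 15 measured markers was 11191.2 and 13394.1 there (0.233% and 0.278% of all signal), against 998.6 to 2068 in heterozygotes and 885.8 to 3185.9 in wild type. Wild-type replicate 1 was the highest of the control pools. Against wild type 11 of the 15 rose and 4 did not pass, with the largest log2 differences for Apoa1, an apolipoprotein (4.91, adjusted p = 0.0171), Spink1, a protease inhibitor (4.45, adjusted p = 0.0181), and Cubn, an endocytic receptor (4.08, adjusted p = 0.00365). Over all genes tested, 1.96% rose in the knockout against wild type. None of the 15 markers was listed at 0 on any array. Kdm5d, a Y-linked gene, rose against wild type and read 55.3 and 102.9 in the knockout, 46.7 to 90.3 in heterozygotes and 10.0 and 4.3 in wild type. Eif2s3y, also Y-linked but too dim for the filter, read 40.8 and 59.5 in the knockout, 21.9 to 44.3 in heterozygotes and 0.8 and 0.3 in wild type. Uty, Y-linked and as well too dim for the filter, differed less. It read 48.7 and 45.1 in the knockout, 25.8 to 52.9 in heterozygotes and 22.1 and 16.8 in wild type. The values of Kdm5d and Eif2s3y go against the label of mixed sex for the wild-type pools. In comparisons with wild type a difference in sex and the genotype therefore cannot be told apart. Knockout and heterozygous pools overlapped in each of these Y-linked genes. The part of these signals in the differences between genotypes was not tested.

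Of the 9 genes that passed a filter on dim probe sets, 4 fell in the knockout against wild type, namely Prrx1, Prrx2, Twist1 and Barx1, and 5 did not pass the test in either direction. These 4 are the genes described above as acting in later mesenchyme, and their knockout signals averaged 35.4% to 57.0% of the wild-type mean. Msx1 and Msx2, which are also used in the limb, had log2 differences from wild type of 0.22 and 0.60, which did not pass. Whether mesenchymal genes fell as a class was not tested. Differences were tested with limma on log2(signal + 3.8) in 1 fit over 7 arrays and 8019 genes, a gene being represented by its brightest probe set, and a Benjamini-Hochberg adjusted p under 0.05 counted as passed. Over all 8019 genes, 1.36% fell and 1.96% rose in this comparison. Each of the 4 genes lay above the filter level on all 7 arrays, so none was tested only because one genotype was bright. Among the 9 genes the median log2 difference was -0.32, against -0.015 over all genes. The call depended on single arrays: 0 of the 9 passed without knockout replicate 1 or without wild-type replicate 2, and 1, Prrx1, passed without knockout replicate 2. Fewer of all genes passed in those fits as well, each with 1 array left in a group. Unadjusted p-values were under 0.05 for the 4 that fell and for Msx2, which was higher in the knockout. An unadjusted p under 0.05 was thus reached by 5 of the 9, against 19.1% of all genes, with all arrays. It was also reached by 5 of the 9 without knockout replicate 1 (13.5% of all genes) and by 5 without wild-type replicate 2 (10.8%). These genes were chosen with earlier results of these data known, so their shares beside those of all genes are no independent support. Whole embryos cannot tell fewer cells of a type from less RNA per cell.

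Prrx1, a homeobox gene of limb and facial mesenchyme, had the largest difference of the 9 genes. Its brightest probe set read 58.3 and 74.6 in the knockout, 223.8, 154.5 and 144.0 in heterozygotes, and 164.1 and 211.7 in wild type. Both knockout arrays lay far below all 5 others, and heterozygous and wild-type arrays overlapped. The log2 difference was -1.45 against wild type (SE 0.23, limma, adjusted p = 0.00928) and -1.32 against heterozygotes (SE 0.21, adjusted p = 0.00714). Without knockout replicate 1 or wild-type replicate 2 the first of these did not pass (-1.28, adjusted p = 0.0899, and -1.27, adjusted p = 0.105), and the second did not pass without knockout replicate 1 (-1.16, adjusted p = 0.0838).

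The other 3 probe sets of Prrx1 ran the same way. One read 41.2 and 39.0 in the knockout, 89.4, 68.1 and 86.9 in heterozygotes, and 72.5 and 99.2 in wild type. Another read 34.6 and 38.2 in the knockout, 99.8, 53.5 and 74.7 in heterozygotes, and 66.0 and 111.3 in wild type. Knockout arrays were the lowest on both. When each of 12528 probe sets was tested alone, these 2 had log2 differences from wild type of -1.01 (adjusted p = 0.0536) and -1.16 (adjusted p = 0.0945), which did not pass, and the brightest still did (adjusted p = 0.0181). Against heterozygotes the first of the 2 passed (-0.95, adjusted p = 0.038) and the second did not (-0.95, adjusted p = 0.0983). In that test 0.902% of all probe sets fell against wild type and 1.71% against heterozygotes. The last probe set was too dim for the filter and read 3.4 and 20.3 in the knockout, against 39.5 to 49.8 in heterozygotes and 36.7 and 60.9 in wild type.

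Prrx2, the close relative of Prrx1 that shares its work in the face and limb, had 1 probe set. It read 182.8 and 154.1 in the knockout, 353.5, 266.9 and 294.5 in heterozygotes, and 285.2 and 305.6 in wild type. The knockout arrays were again the 2 lowest, while the control genotypes overlapped. In limma it differed by -0.80 (log2) from wild type (SE 0.16, adjusted p = 0.0242) and by -0.84 from heterozygotes (SE 0.14, adjusted p = 0.0102). Any knockout or wild-type array left out ended the first call (adjusted p 0.0691 to 0.193), and either knockout array left out ended the second (0.0529 and 0.12).

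Twist1, a basic helix-loop-helix factor needed for crest-derived mesenchyme of the head, had the tightest knockout values of the set. It read 237.3 and 239.1 in the knockout, 446.1, 369.4 and 348.1 in heterozygotes, and 443.5 and 481.5 in wild type. The knockout arrays were lowest, and heterozygous replicate 1 lay between the wild-type arrays while the other heterozygous arrays lay under them. The log2 difference was -0.95 from wild type (SE 0.14, adjusted p = 0.00657) and -0.69 from heterozygotes (SE 0.13, adjusted p = 0.0138). Heterozygotes differed from wild type by -0.26 (95% limits -0.54 to 0.024, adjusted p = 0.999), which did not pass. Without either knockout array or wild-type replicate 2 the difference from wild type did not pass (adjusted p 0.0596 to 0.0755). The fall against heterozygotes did not pass without knockout replicate 1 or 2 (adjusted p = 0.108 and 0.112).

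Barx1, a homeobox gene of the first arch mesenchyme and of the developing stomach wall, read 45.8 and 48.7 in the knockout, 111.8, 85.3 and 108.8 in heterozygotes, and 87.0 and 114.0 in wild type. The knockout arrays agreed closely with each other and lay below the other 5, among which the genotypes overlapped fully. Its log2 difference in limma was -1.02 from wild type (SE 0.21, adjusted p = 0.027) and -1.04 from heterozygotes (SE 0.19, adjusted p = 0.0132). It did not pass against wild type without knockout replicate 1 or 2, heterozygous replicate 3 or wild-type replicate 2 (adjusted p 0.0502 to 0.245), nor against heterozygotes without knockout replicate 1 or 2 or heterozygous replicate 3 (0.0502 to 0.103).

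**Figure D1:**
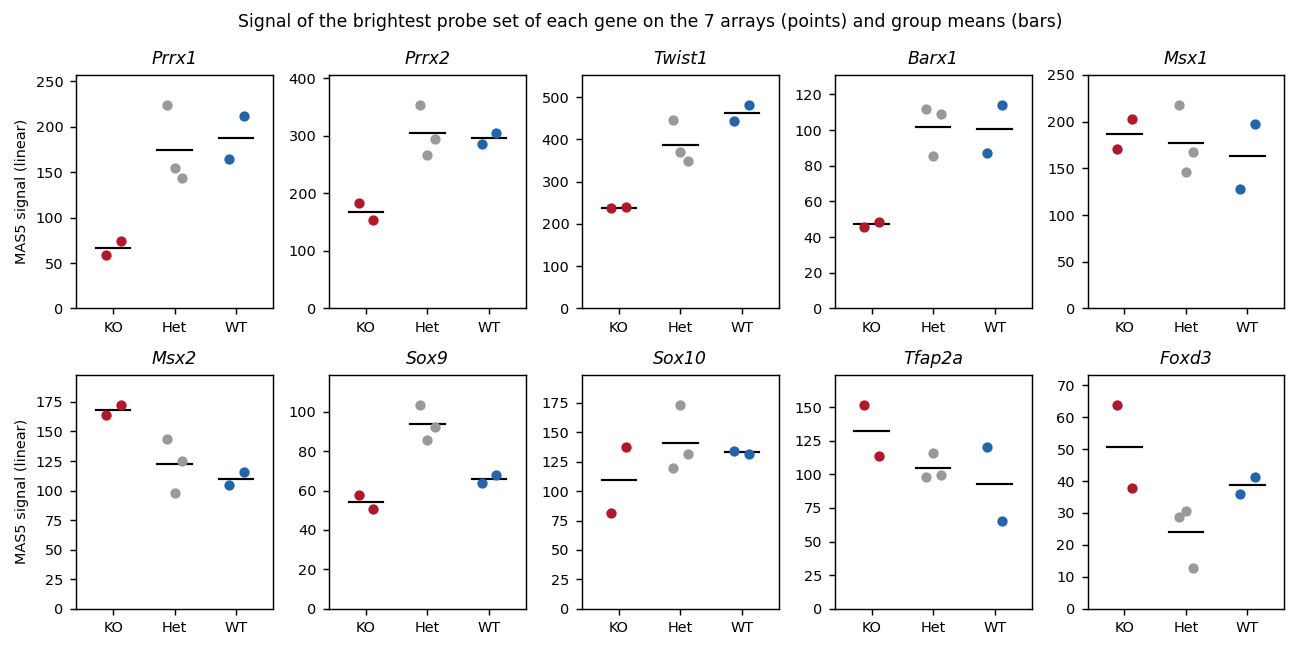
MAS5 signal (linear, each axis from 0) of the brightest probe set of each of the 10 genes, with 1 point per array and a bar at the mean of the knockout (KO, 2 arrays), heterozygous (Het, 3) and wild-type (WT, 2) pools. Knockout points lie below all others for Prrx1, Prrx2, Twist1, Barx1 and Sox9 and above all others for Msx2.

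None of the 3 border genes, Msx2, Msx1 and Tfap2a, passed in either knockout comparison. Msx2, a homeobox repressor induced by bone morphogenetic proteins in the face and limb, read 164.2 and 172.1 in the knockout, 143.3, 98.0 and 125.1 in heterozygotes, and 104.7 and 115.5 in wild type. Both knockout arrays were the highest of the 7. The log2 difference was 0.60 from wild type (SE 0.19, 95% limits 0.18 to 1.01, limma, adjusted p = 0.118) and 0.47 from heterozygotes (SE 0.17, adjusted p = 0.14), and neither passed. Its relative Msx1 had 2 probe sets. The brighter read 170.5 and 203.3 in the knockout, 217.8, 145.7 and 167.3 in heterozygotes, and 127.6 and 198.0 in wild type, with the genotypes interleaved. It differed by 0.22 from wild type (95% limits -0.30 to 0.74, adjusted p = 0.667) and by 0.092 from heterozygotes (-0.38 to 0.57, adjusted p = 0.84). The dimmer read 59.2 and 67.6 in the knockout, 84.0, 59.4 and 66.2 in heterozygotes, and 48.7 and 57.3 in wild type. There both knockout arrays lay above the wild-type ones, but the difference of 0.24 did not pass (adjusted p = 0.61).

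Tfap2a, which encodes the transcription factor AP-2 alpha of border, crest and surface ectoderm, had 3 probe sets that disagreed. The brightest over all arrays read 151.3 and 113.4 in the knockout, 97.8, 115.8 and 99.8 in heterozygotes, and 120.1 and 65.3 in wild type, a log2 difference from wild type of 0.54 (SE 0.26, limma, adjusted p = 0.296). The second read 162.4 and 114.2 in the knockout, 93.6, 99.1 and 113.2 in heterozygotes, and 77.2 and 90.2 in wild type. The third read 65.8 and 51.6 in the knockout, 62.9, 68.1 and 62.6 in heterozygotes, and 79.4 and 84.5 in wild type. Knockout arrays were thus the 2 highest on the second probe set and below both wild-type arrays on the third. Tested alone, the second differed from wild type by 0.68 (adjusted p = 0.119) and the third by -0.47 (adjusted p = 0.25), and neither passed, so no direction can be given for Tfap2a. Of the 9 measured surface ectoderm markers, 6 rose in the knockout against wild type and 3 did not pass, while 1.96% of all genes rose. Their summed signal was 3342.6 and 3616.7 in the knockout, 1341.7 to 1880.6 in heterozygotes, and 1933.4 and 1333 in wild type. Keratins and other epithelial genes of that list are also made by visceral endoderm, and their part in the Tfap2a signals was not tested.

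Sox9, the high-mobility-group factor of cartilage and early crest, gave different answers on its 2 probe sets. The brighter read 57.6 and 50.5 in the knockout, 103.3, 85.5 and 92.3 in heterozygotes, and 64.0 and 67.8 in wild type. Here the heterozygous arrays were highest and the knockout arrays lowest, with no overlap among the 3 genotypes. The knockout fell against heterozygotes (log2 difference -0.75, SE 0.17, limma, adjusted p = 0.0341), and its difference from wild type was -0.27 (95% limits -0.69 to 0.15, adjusted p = 0.482). The dimmer read 56.6 and 62.4 in the knockout, 65.0, 69.0 and 51.5 in heterozygotes, and 72.8 and 66.0 in wild type. On it the knockout differed from heterozygotes by -0.044 (adjusted p = 0.918), so the fall was seen on 1 of 2 probe sets. It also did not pass without knockout replicate 1 or 2 or heterozygous replicate 1 or 3 (adjusted p 0.0811 to 0.206). Col2a1, the cartilage collagen that Sox9 activates, fell to 351.1 and 282.4 in the knockout, against 573.3 and 785.1 in wild type (log2 difference -1.08, SE 0.20, adjusted p = 0.0205), with 553.0 to 788.5 in heterozygotes. The cartilage matrix genes Col9a1 (-0.25), Col11a1 (-0.37) and Hapln1 (0.47) did not pass against wild type (adjusted p = 0.555, 0.321 and 0.229). A link between these values and Sox9 was not tested.

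Sox10, which keeps crest cells on the glial and pigment paths, had 3 probe sets. Its knockout arrays were spread more widely than wild type on the brightest, but less widely on the dimmest. Its brightest probe set read 81.1 and 137.4 in the knockout, 119.4, 172.9 and 131.3 in heterozygotes, and 133.9 and 131.9 in wild type. The knockout arrays fell on both sides of the wild-type ones. The log2 difference was -0.32 from wild type (SE 0.25, 95% limits -0.87 to 0.23, limma, adjusted p = 0.529) and -0.39 from heterozygotes (adjusted p = 0.344). A further probe set read 108.7 and 85.9 in the knockout, 86.9 to 119.7 in heterozygotes, and 111.7 and 99.0 in wild type, and the dimmest read 44.6 and 31.6 in the knockout, 48.8 to 77.4 in heterozygotes, and 45.3 and 65.0 in wild type. Tested alone, they differed from wild type by -0.12 and -0.49 (adjusted p = 0.81 and 0.408), so all 3 were lower in mean and none passed. Foxd3, a forkhead factor of premigratory crest, was too dim for the filter and was not in the test. It read 63.7 and 37.8 in the knockout, 28.8, 30.5 and 12.9 in heterozygotes, and 36.0 and 41.3 in wild type, with both knockout arrays above the heterozygous ones, 1 of them above and the other between the wild-type ones. With no filter its log2 difference was 0.32 from wild type (adjusted p = 0.785) and 1.00 from heterozygotes (adjusted p = 0.214).

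**Figure D2:**
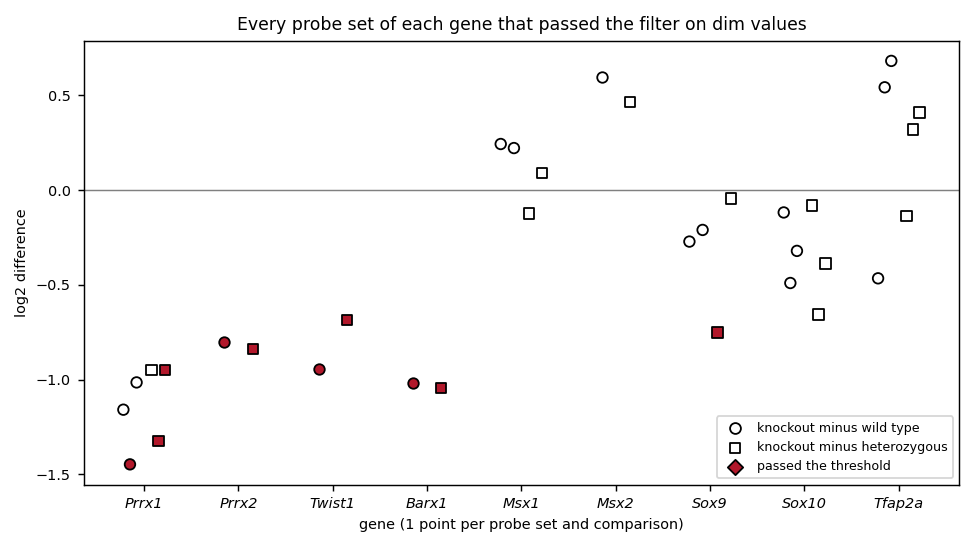
Log2 difference for each probe set above the filter when tested alone, with circles for knockout minus wild type and squares for knockout minus heterozygous, filled where the adjusted p was under 0.05. Points of Prrx1, Prrx2, Twist1 and Barx1 all lie below 0, while the 3 probe sets of Tfap2a lie on both sides of 0.

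Against heterozygotes, 5 of the 9 genes fell in the knockout, Prrx1, Prrx2, Twist1, Barx1 and Sox9, 0 rose and 4 did not pass. Over all genes 2.76% fell and 3.11% rose in that comparison, and the median log2 difference was -0.69 among the 9 and -0.023 over all genes. This comparison shares its knockout arrays with the one against wild type and is no independent repeat of it. The Y-linked signal overlapped between knockout and heterozygous pools, unlike the visceral endoderm markers. Without knockout replicate 1, 0 of the 9 passed (5 at an unadjusted p under 0.05, against 15.7% of all genes), without knockout replicate 2 only Prrx1 did, and without heterozygous replicate 3 it was Prrx1, Prrx2 and Twist1. Fewer of all genes passed in those fits as well. By arrays alone, 6 of the 9 had knockout pools wholly outside the other genotype in each comparison, 5 of them lower and Msx2 higher. That holds for 52.9% of all genes against wild type and for 40.1% against heterozygotes, so non-overlap by itself says little with 2 arrays.

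Between heterozygotes and wild type 0 of the 9 genes passed, nor did any other gene (0% in limma, in either direction). At an unadjusted p under 0.05 there was 1 of the 9, Sox9, and 284 of all 8019 genes (3.54%). Sox9 differed by 0.48 on its brighter probe set (SE 0.17, 95% limits 0.098 to 0.86, adjusted p = 0.999) and by -0.17 on the other. On the brightest probe set of each gene it was also the only one of the 9 whose heterozygous and wild-type arrays did not overlap, as for 17.4% of all genes. On other probe sets the heterozygous arrays were all above wild type for Msx1, and above it on 1 and below it on another for Tfap2a. The 95% limits were -0.59 to 0.34 for Prrx1, -0.29 to 0.36 for Prrx2 and -0.40 to 0.44 for Barx1. A difference of the size seen in the knockout therefore lay outside these limits for all 3 genes, whereas smaller differences could not be detected with these arrays. In the order of genotype means, the knockout was lowest for Prrx1, Prrx2, Twist1, Barx1, Sox9 and Sox10, and the heterozygous and wild-type means next to each other differed by less than the test could call.

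**Figure D3:**
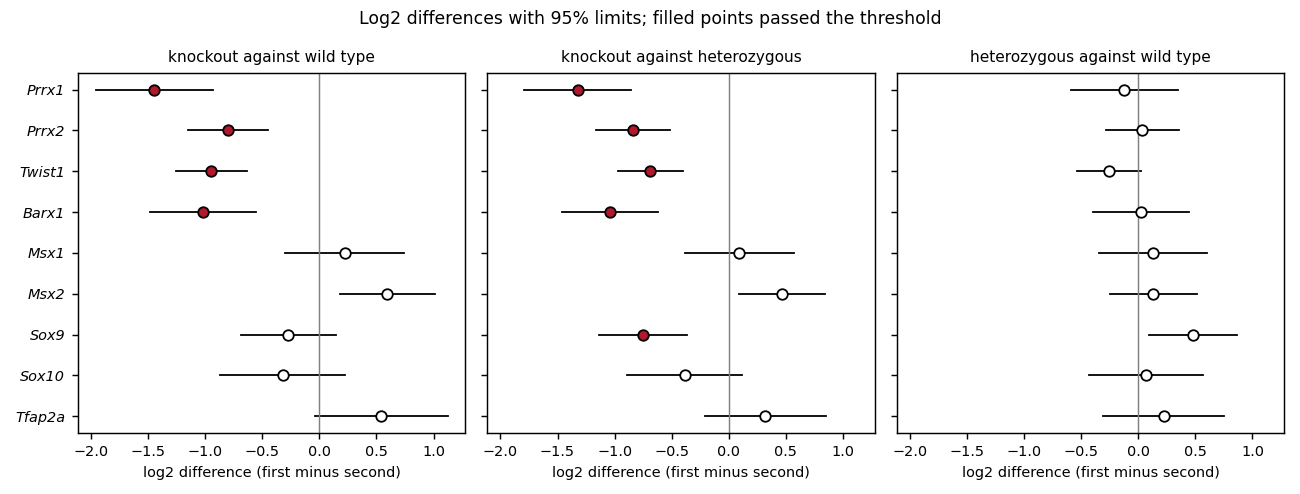
Log2 differences of the 9 tested genes for knockout against wild type, knockout against heterozygous and heterozygous against wild type, with 95% limits from limma, filled where the adjusted p was under 0.05. The first 2 panels show 4 and 5 genes lower in the knockout, and the last shows none past the threshold.

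Of 131 other genes of crest and face development, taken from 7 lists chosen with earlier results known, 91 were measured. Against wild type 8 of them fell in the knockout, 0 rose and 83 did not pass, and against heterozygotes 10 fell, 3 rose and 78 did not pass. Over all 8019 genes, 1.36% fell and 1.96% rose against wild type, and 2.76% fell and 3.11% rose against heterozygotes. The median log2 difference of the 91 genes from wild type was -0.036, close to that of all genes. The counts were 1 in each comparison without knockout replicate 1 or knockout replicate 2, and 1 against wild type without wild-type replicate 2.

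Among 11 border genes Zic1, a zinc-finger factor of the dorsal neural tube, fell (-0.98, SE 0.19, limma, adjusted p = 0.0233), with 233.5 and 195.8 in the knockout, 378.8 to 479.1 in heterozygotes and 350.5 and 514.3 in wild type. The border list otherwise had 10 genes that did not pass and a median of 0.31. Of 12 delamination genes 2 fell. Snai1, a repressor of E-cadherin in cells that leave an epithelium, read 65.5 and 58.5 in the knockout, against 139.9 and 161.5 in wild type (-1.23, SE 0.18, adjusted p = 0.0062). In RefSeq's annotation Snai1 and Adnp lie on chromosome 2 with 6 protein-coding genes between them. Prrx2, on the same chromosome, has 1360 between it and Adnp. The part of position in the falls of these genes was not tested. Cdh11, a mesenchymal cadherin, read 324.1 and 325.9 in the knockout, against 459.3 and 535.5 in wild type (-0.60, SE 0.12, adjusted p = 0.0259). Rhob, a small GTPase of delaminating crest, fell against heterozygotes (-0.67, adjusted p = 0.0171) and missed the threshold against wild type (-0.59, adjusted p = 0.0529), and Id2 rose against heterozygotes alone (0.50, adjusted p = 0.0411).

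In the pharyngeal arch and facial patterning list 18 of 33 genes were measured, of which 2 fell and 16 did not pass against wild type. These were Six2, a homeobox gene of facial and kidney mesenchyme (91.3 and 87.0 in the knockout, 164.7 and 158.6 in wild type, -0.83, SE 0.15, limma, adjusted p = 0.0158), and Nr2f1, a nuclear receptor of brain and face (262.2 and 268.4 in the knockout, 403.1 and 474.5 in wild type, -0.71, SE 0.15, adjusted p = 0.0314). Both also fell against heterozygotes (-0.66 and -0.75, adjusted p = 0.0212 and 0.0134). Among 13 guidance and survival receptors 0 passed against wild type in limma. Ngfr, the low-affinity neurotrophin receptor used to sort crest cells, read 54.1 and 45.4 in the knockout, against 102.7 and 88.3 in wild type (-0.89, adjusted p = 0.0523), and fell against heterozygotes (-1.12, adjusted p = 0.0102), while Nrp2, a semaphorin receptor, rose against heterozygotes (0.79, adjusted p = 0.0146).

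Of 22 signalling genes 0 passed against wild type and 1, Fgfr1, fell against heterozygotes (-0.73, limma, adjusted p = 0.0166). Its difference from wild type was -0.51 (adjusted p = 0.106). In the mesenchyme and cartilage matrix list 2 of 13 fell against wild type, Col2a1 and Vim, the intermediate filament of mesenchyme and neural progenitors (-0.71, SE 0.16, adjusted p = 0.0379), and 11 did not pass. Col1a1, the collagen of bone and skin, differed from wild type by 0.37 (adjusted p = 0.306) and rose against heterozygotes (0.97, adjusted p = 0.00981). In the glial, autonomic and pigment list 7 of 11 genes had a probe set and 2 passed the filter, and Fabp7, a fatty acid-binding protein of radial glia and crest-derived glia, fell (-2.30, SE 0.32, adjusted p = 0.00555).

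**Figure D4:**
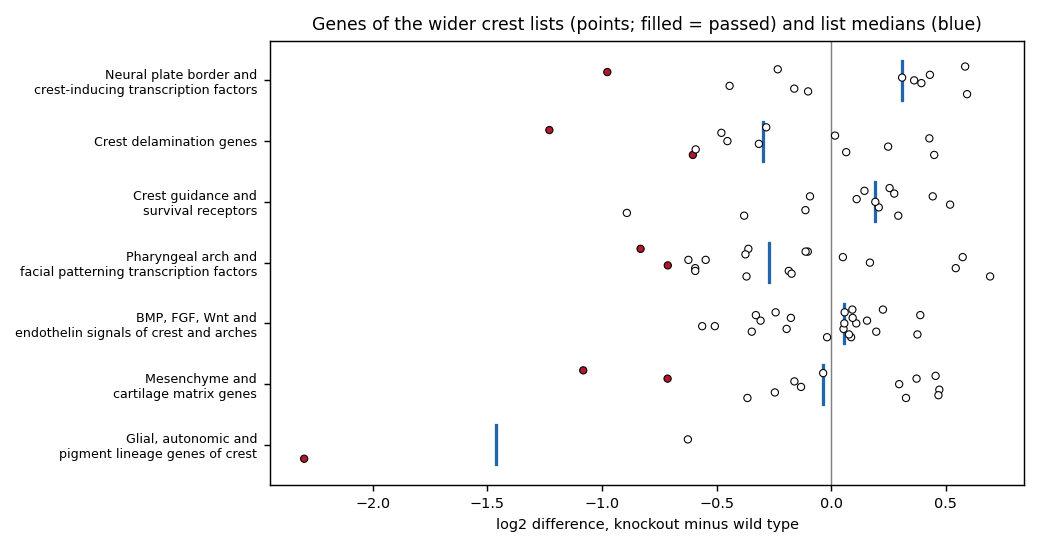
Log2 difference, knockout minus wild type, for each measured gene of 7 wider crest lists (points, filled where the adjusted p was under 0.05) with the median of each list in blue. All filled points, 8 in number, lie below 0, and list medians lie on both sides of it.

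Some markers of other embryonic tissues also fell in the knockout, though most did not pass against wild type, where 1.36% of all genes fell. Of 6 measured somite and paraxial mesoderm genes 2 fell against wild type and 4 did not pass, with a summed signal of 387.4 and 356.3 in the knockout, 686.1 to 795 in heterozygotes, and 838.9 and 695.7 in wild type. Of 10 neural tube genes 4 fell and 6 did not pass, with sums of 1368.7 and 1376.9 in the knockout, 1919.5 to 2025.8 in heterozygotes, and 1979 and 2170 in wild type. The summed signal of the 9 crest and mesenchyme genes was 1148.9 and 1193.2 in the knockout, 1494 to 1816.8 in heterozygotes, and 1530.1 and 1691.3 in wild type. Against heterozygotes 4 of the 6 somite genes and 4 of the 10 neural tube genes fell, as did 2.76% of all genes. Median log2 differences from wild type were -1.11 for the somite list, -0.62 for the neural tube list and -0.32 for the 9 genes. Of the heart genes 2 of 9 fell, of the endothelial genes 1 of 8, of the otic and other placodal genes 0 of 4 and of the primitive erythroid genes 0 of 6, and none of these rose. The part of these marker signals in the falls of Prrx1, Prrx2, Twist1 and Barx1 was not tested.

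**Figure D5:**
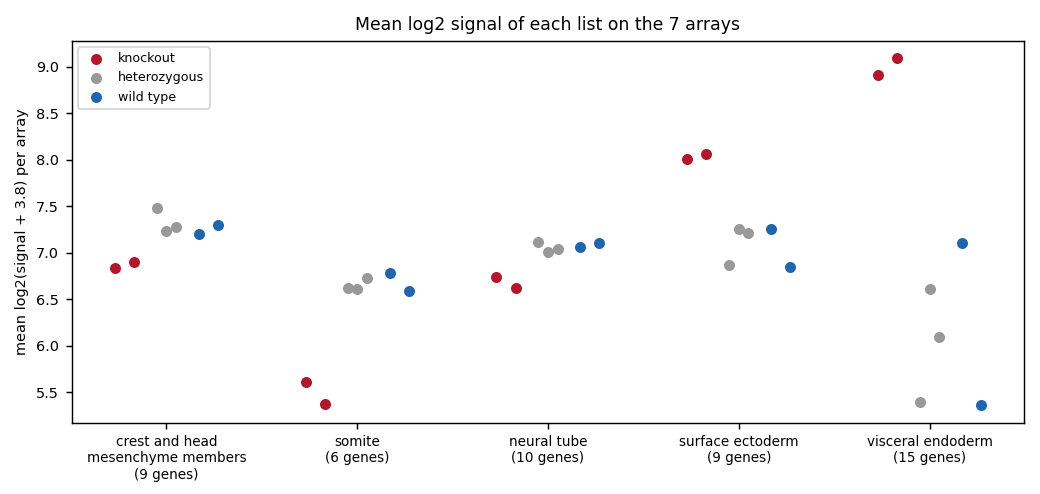
Mean of log2(signal + 3.8) over the measured genes of 5 lists on each array, with knockout, heterozygous and wild-type pools in separate colours. Knockout points are lowest for the crest and mesenchyme genes, somite and neural tube lists and highest for surface ectoderm and visceral endoderm.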

How the data were processed

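RNA of 7 pools of whole embryos was measured on Affymetrix Murine Genome 430A arrays. Intensity values, 1 linear signal per probe set, were deposited after MAS5 summarisation by the authors, per the submitters' processing notes. For MAS5, no version, no scaling target and no detection call was given in the sources used. The deposited signals had a mean, after trimming 2% at each end, of 150 on every array, so differences are relative to the whole array.

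Of 22690 probe sets 64 were controls. Among the rest 20380 had 1 symbol in the platform annotation, 691 several and 1555 none listed, and only the first named genes. Signals were taken as log2(signal + 3.8), with 3.8 the 10th percentile, which understates changes of dim genes. For each gene the brightest probe set stood for it, and genes under the 40th percentile of mean log2 signal (38.1 as signal plus pseudocount) were left out, leaving 8019. Genotypes were compared in R 4.3.3 with limma 3.58.1 (lmFit, eBayes with an intensity trend, genotype as the only term, 4 residual and 6.19 prior degrees of freedom), with two-sided p-values, Benjamini-Hochberg adjusted over all genes tested. The procedure was tested on simulated data. Nothing in the labels says how litters were divided among pools.

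The 10 genes, the 7 wider lists and the 9 marker lists were chosen with earlier results of these data known. Named genes outside the 10 were, per wider list, up to 4 past the threshold in either knockout comparison with the largest difference from wild type, or the 1 of smallest p, and, of all marker lists, the 3 largest differences. Col9a1, Col11a1 and Hapln1, which did not pass, were named beside Col2a1 outside this rule. Kdm5d, Eif2s3y and Uty, which are Y-linked, were named after their values were seen. Alternatives changed the filter, the pseudocount, the scaling, the intensity trend, the groups fitted, array weights, a replicate block, the choice of probe set and the threshold, or left out each array in turn.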

Additional observations from a re-analysis of the deposited data

How the results depend on the processing

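Prrx1, Prrx2, Twist1 and Barx1 kept a negative difference in both knockout comparisons under every alternative run. With another pseudocount (1 or 16), quantile normalization, median centring, a filter at the 20th percentile, array weights, only the 2 groups compared or each probe set alone, 4 of the genes passed against wild type and 5 against heterozygotes. It was 3 and 4 with no filter, 3 and 5 with no intensity trend, 4 and 4 with the mean of probe sets, and 3 and 3 with a filter at the 60th percentile, which leaves out Barx1 and Sox9. With 1 array left out, the count ran from 0 to 4 against wild type and from 0 to 5 against heterozygotes, and that of the wider lists from 1 to 10 and from 1 to 14. Same-numbered knockout and wild-type pools deviated with r = -0.054, and same-numbered heterozygous and wild-type pools with r = -0.29 and -0.28. With 2 pools in a group, crossed numbers give the same r with the opposite sign, so these values cannot settle whether the numbers pair the pools. With the replicate number as a block, which costs degrees of freedom, 2 genes passed against wild type (Prrx1, Twist1). Against heterozygotes 1 passed (Prrx1), and of the wider lists 2 and 3 passed, respectively. The wider-list count against wild type was 5 with no filter and 3 with no intensity trend. Over all genes, 266 passed against wild type and 470 against heterozygotes, but 161 and 306 with no filter, 174 and 262 with no trend, 514 and 663 with array weights 72 and 76 with the block, and 52 to 403 and 69 to 548 with 1 array left out. The causes were not tested. Between heterozygotes and wild type 0 of the genes passed under every alternative run.

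Differences whose sign turned had not passed the test. Between heterozygotes and wild type, leaving out each array in turn gave -0.31 to 0.057 for Prrx1, -0.074 to 0.13 for Prrx2, -0.17 to 0.21 for Barx1, -0.18 to 0.44 for Msx1, -0.083 to 0.18 for Sox10 and -0.20 to 0.29 for Tfap2a. The block gave -0.027 for Barx1, and other probe sets gave -0.17 for Sox9, -0.038 for Sox10 and -0.33 for Tfap2a. Between knockout and wild type the range was -0.087 to 0.53 for Msx1 and -0.69 to 0.047 for Sox10, and another probe set gave -0.47 for Tfap2a. Between knockout and heterozygotes it was -0.035 to 0.25 for Msx1, with -0.015 as the mean of its probe sets and -0.12 on the other one, and another probe set gave -0.14 for Tfap2a. With 2 or 3 arrays per genotype, their number limits the precision.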
